A study of Mus musculus with 4 samples.

Results

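The comparison described here set the brain of older mice against that of young mice after the same course of ethanol, in spatial transcriptomes of 1 coronal section from each. The young ethanol library came from mice 3 to 4 months old and the older ethanol library from mice 18 to 20 months old. All animals were female C57BL/6 mice of the National Institute on Aging colony. Ethanol at 3 g/kg was given by intragastric gavage every other day, for 10 exposures over 18 days, and tissue was taken 18 h after the last of them. A vehicle pair of the same ages, which received water on the same schedule, was set beside the ethanol pair throughout and shared no library with it. No group carried a transgene or a deleted allele. Each group was 1 library, and how many animals stood behind a library was not given in the sources used here. The left hemisphere was embedded, frozen and cut at 10 µm between bregma -2.0 and -2.2, and the labels' protocol stated that the meninges had been taken off.

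Spots were assigned to a library by the suffix of their barcode, and those with at least 500 unique molecular identifiers (UMIs, 1 for each captured RNA molecule) were kept. The ethanol pair then held 5523 of the 10942 spots of the series, 2881 in the young library and 2642 in the older one, and the vehicle pair held 2716 young and 2703 older spots. A spot is a small disc of tissue that can cover several cells or parts of cells, so no cell was identified and no doublet caller was run. Fewer cells of a type and less RNA in each of those cells cannot be told apart in such data. Although the series' text named the tissue as hippocampal, the sections covered the whole hemisphere at this level. The cornu ammonis field CA1 made up 2.78% of the young ethanol spots and 3.48% of the older ones, the dentate granule layer 1.35% and 1.48%, and no cluster carried the markers of CA3.

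Ageing of the rodent brain is known for a rising tone of its glia. Astrocytes make more of the filament protein GFAP, microglia make more complement and lysosomal proteins, oligodendrocyte-rich white matter gathers the most reactive microglia, and lymphocytes and antigen-presenting cells collect at the brain's borders. Ethanol given in repeated large doses is itself a stimulus to the same innate pathways, to stress hormones and to the vessel wall, and in the hours after a dose it alters which neurons fire. Immediate early genes such as Arc, Fos and Egr2 report that firing because their transcription starts within minutes of synaptic input. The comparison therefore addressed how the state of glia, border cells, vessels and neurons differed between an older and a young brain when both had received ethanol.

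Total UMIs were 58305713 in the young ethanol library and 48131900 in the older one. The median spot had 19077 UMIs from 5183 genes in the young library and 16150.5 UMIs from 4634.5 genes in the older one. Mitochondrially encoded RNA took 14.3% of the young and 16.5% of the older ethanol counts, against 13.8% and 13.6% in the young and older vehicle libraries. The libraries also differed in what tissue they held. A thalamic cluster marked by Prkcd and Tnnt1 held 476 young and 482 older ethanol spots but 200 and 212 vehicle spots, and the habenula held 27 and 20 ethanol spots and 0 vehicle spots. The sections of the ethanol pair thus resembled each other in these regions more than they resembled the vehicle pair. The young and older ethanol libraries shared 1538 barcodes, which are fixed positions on the slide and not shared tissue.

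Levels were expressed within matched tissue as CPM, the UMIs of a gene divided by the total and multiplied by 1000000. Spots of all 4 libraries were clustered together on 1584 features, and 20 of 23 clusters with at least 20 spots in both ethanol libraries were used as strata, holding 2853 young and 2617 older ethanol spots. The vehicle levels over the section come from 18 of these 20 strata. The habenula, with 0 vehicle spots, and the reticular thalamus, with 18 young and 6 older vehicle spots, had too few. Features used for clustering were left out of the comparisons. A gene's level in each library was averaged over strata with the same weights. The ratio of older over young was taken of these averages. A difference in the amount of a stratum therefore did not enter the ratio, but a different mix of tissue within a stratum could. The 95% interval of the ratio covers counting error only. With 1 library a side there was no replicate and no test: neither the spread between animals nor that between slides could be estimated, and a difference is a difference between these libraries. A gene was counted as higher or lower when the ratio was at least 2-fold and the library with more of it held at least 50 UMIs.

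Across the section, 18 of 12919 genes met this rule as higher in the older ethanol library, which is 0.139% of those compared, and 33 met it as lower, which is 0.255%. The median log2 ratio over all genes was -0.05. Of the genes that met the rule, 35.3% were higher. When counts were scaled to a total without mitochondrial genes 44.7% were higher, and with median-of-ratios size factors 47.9% were higher, so the excess of lower genes depended on the scaling. The older ethanol library was led by the immunoglobulin kappa constant gene Igkc, and the young one by Lcn2, which encodes the acute-phase protein lipocalin 2. The vehicle pair had 15 higher genes (0.118% of 12719) and 19 lower genes (0.149%). Among the 12624 genes compared in both pairs, none of the 13 higher genes of the ethanol pair was also higher in the vehicle pair. Of the 17 lower genes 2 were shared, Plin4 and G530011O06Rik, which is 11.8% of the ethanol and 13.3% of the vehicle calls. Ccdc36, S100a8 and Xlr3b met the rule in opposite directions in the ethanol and vehicle pairs. The difference between the pairs was not tested.

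**Figure D1:**
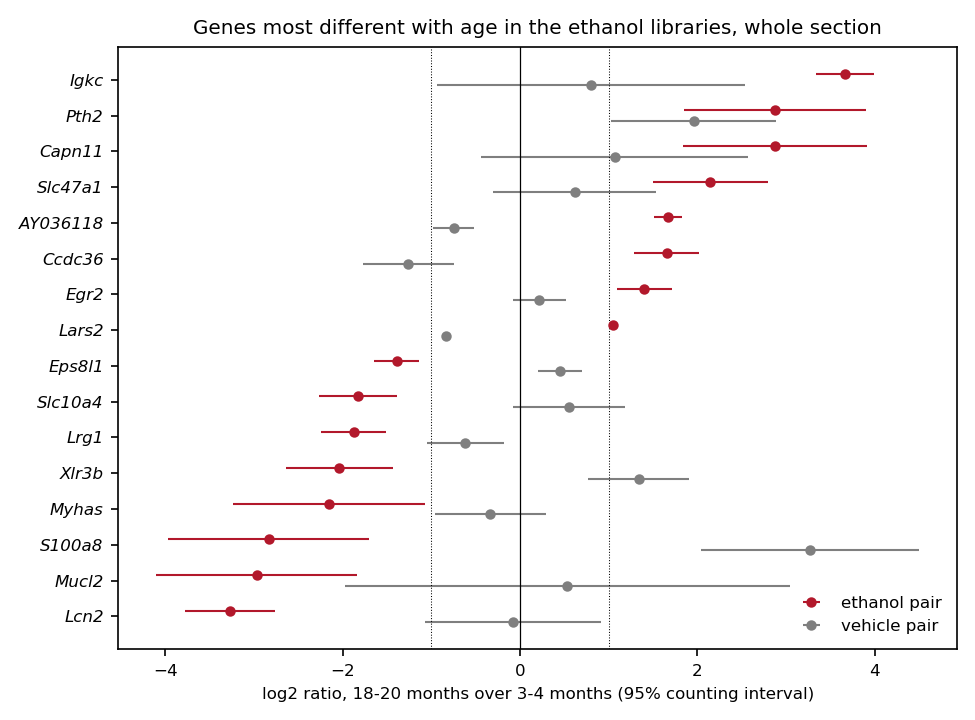
Log2 ratio of the level at 18 to 20 months over that at 3 to 4 months for the 8 most higher and 8 most lower genes of the ethanol pair (red), with the vehicle pair (grey) beside each. Bars are 95% counting intervals, and dotted lines mark a 2-fold ratio. Igkc stands at 3.66 and Lcn2 at -3.27 in the ethanol pair, and the grey point of S100a8 lies on the opposite side at 3.27.

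The older ethanol section carried far more antibody light-chain RNA than the young one. Igkc is the constant part of the kappa light chain, transcribed by B cells and in bulk by plasma cells. Its level was 0.0781 CPM in the young vehicle, 0.135 in the older vehicle, 1.41 in the young ethanol and 17.8 in the older ethanol library, from 5, 7, 84 and 874 UMIs. The older ethanol library stood above all 3 others, and the ratio over the young ethanol library was 12.7-fold (95% counting interval 10.1 to 15.9). Igkc was found in 10.9% of the older ethanol spots (exact binomial interval 9.74 to 12.2%) and in 1.81% of the young ones (1.35 to 2.36%). After thinning to 5000 UMIs per spot, which left out the 95 older and 87 young ethanol spots with fewer, the shares were 4.87% and 0.895%. The vehicle shares were 0.516% in the young and 0.444% in the older library before thinning.

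The light-chain RNA was unevenly spread. The 10 spots with most Igkc held 39.3% of its UMIs in the older ethanol library, and the highest spot had 75. In white matter the young ethanol library had 1 UMI of Igkc and the older one 212, a ratio of 223 with a counting interval from 31.3 to 1592. In the hypothalamus the counts were 1 and 153, a ratio of 180 (25.2 to 1288). In spots with the genes of meninges and large vessels they were 20 and 326, which corresponds to 8.1 and 152 CPM and an 18.8-fold ratio (12.0 to 29.6). In the relay thalamus, by contrast, the levels of Igkc were 5.72 CPM in the young and 5.39 in the older ethanol library. Of the 4 regions with enough Igkc to compare, 3 met the rule as higher and the thalamus did not.

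Jchain, which joins antibody monomers into the secreted polymer, was at 0.495 CPM in the young and 1.32 in the older ethanol library (28 and 65 UMIs, log2 ratio 1.42, interval 0.78 to 2.06). Ighm, the heavy chain of IgM and the form carried by resting B cells, was at 34.7 and 40.5 CPM over the section, a log2 ratio of 0.22 that did not meet the rule. It did meet it in the hypothalamus, at 18.5 and 37.2 CPM, and in the meningeal and vascular spots, at 20.6 and 82.7 CPM (log2 ratio 2.00). In the habenula Ighm met the rule as lower, at 88.5 and 37.4 CPM, and over 14 regions it lay above in 8 and below in 6. Over the immunoglobulin list 2 of 4 measured genes were higher and none lower, with a median log2 ratio of 0.82 in the ethanol and 0.50 in the vehicle pair, against -0.05 over all genes. The summed level of the immunoglobulin list was 39.2 CPM in the young ethanol, 63.8 in the older ethanol, 23.2 in the young vehicle and 19.0 in the older vehicle library. Most of each sum was Ighm, at 33.6, 41.1, 20.6 and 15.6 CPM over all spots in the same order. Ighm was found in 34.7%, 36.1%, 21.1% and 16.6% of the spots. What part of the sums came from B cells was not tested.

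Genes for class II antigen presentation were higher in the older ethanol library at the brain's border. Class II molecules display peptides to helper T cells and are made by dendritic cells, border macrophages and B cells. Their alpha and beta chains are encoded by H2-Aa, H2-Ab1 and H2-Eb1, and Cd74 encodes the invariant chain that escorts them. In the meningeal and vascular spots, 135 in the young and 125 in the older ethanol library, 19 of 6357 genes met the rule as higher (0.299%) and 32 as lower (0.503%), against 0.311% and 0.104% in the vehicle pair, and all 4 measured class II genes were among the higher. H2-Aa was at 23.1 CPM in the young vehicle, 32.5 in the older vehicle, 11.7 in the young ethanol and 40.7 in the older ethanol library. Young ethanol was the lowest and older ethanol the highest, with a log2 ratio of 1.79 from 29 and 87 UMIs. Cd74 was at 39.8, 61.6, 29.96 and 71.98 CPM in the same order (log2 ratio 1.26), H2-Ab1 at 22.7, 36.2, 12.1 and 35.1 (1.53) and H2-Eb1 at 23.1, 30.6, 13.4 and 32.7 (1.29). For these 4 genes the older ethanol level was close to the older vehicle level for H2-Ab1 and H2-Eb1, and the young ethanol level was below the young vehicle level for all of them. The list median in these spots was 1.41 in the ethanol pair and 0.56 in the vehicle pair, against -0.09 for all genes of the ethanol pair. Of the 12 fibroblast and matrix genes measured there, Col1a1 alone met the rule as higher, and their median was -0.05 with 5 above 0. How much of the meninges each section kept was not tested.

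Over the whole section H2-Aa was at 1.69 CPM in the young and 3.68 in the older ethanol library (98 and 177 UMIs, log2 ratio 1.12, interval 0.76 to 1.48), and at 3.00 and 2.70 in the vehicle libraries. It did not reach 2-fold with coarser strata (0.94) or with no strata (0.93). H2-Ab1 was at 1.87 and 4.10 CPM, a 2.20-fold ratio (1.73 to 2.79), while Cd74 was at 5.25 and 7.43 (log2 ratio 0.50) and stayed below the rule. White matter differed from the border in the sign of Cd74. Its level there was 24.8 CPM in the young and 13.2 in the older ethanol library (log2 ratio -0.91) and 4.40 and 9.76 in the vehicle libraries. Class I genes, which present peptides of the cell's own proteins, had a section median of -0.05 over 14 genes with none past the rule, and B2m, their shared light chain, was at 180 and 205 CPM. The interferon-induced gene Ifi27l2a was at 8.17 and 12.97 CPM over the section and met the rule in the relay thalamus, at 6.84 and 21.6 CPM (log2 ratio 1.66), where the vehicle levels were 3.07 and 4.01.

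The stretches before the class II genes are shown because these genes were higher together in the meningeal and vascular spots and are known to share a promoter module that includes the Y box, written CCAAT or, on the other strand, ATTGG. The 250 bases before each listed start were read from RefSeq on GRCm38.p6, the patch release of the mm10 build, and capitals mark each Y box on either strand. Of the 7 genes of the class II list 4 were matched, H2-Aa, H2-Eb1, H2-DMa and H2-DMb1, and all 4 held a Y box. So did 33.8% of 32851 promoters of the same length. H2-Ab1 and Cd74, which were also higher in the meningeal and vascular spots, were not matched, so their promoters were not read. The palindrome TGACGTCA, the full cyclic AMP response element, was also searched on both strands and lies once in the H2-Aa stretch, just upstream of the Y box, and in 1.55% of all promoters. H2-Aa lies on the minus strand at chr17:34287824-34288073 and H2-Eb1 on the plus strand at chr17:34305617-34305866. A match is a match of letters and shows no binding.
H2-Aa: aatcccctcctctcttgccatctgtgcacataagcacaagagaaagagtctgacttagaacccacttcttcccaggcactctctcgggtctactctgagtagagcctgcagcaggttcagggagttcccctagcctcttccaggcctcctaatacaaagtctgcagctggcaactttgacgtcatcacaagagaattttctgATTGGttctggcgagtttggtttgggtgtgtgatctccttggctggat
H2-Eb1: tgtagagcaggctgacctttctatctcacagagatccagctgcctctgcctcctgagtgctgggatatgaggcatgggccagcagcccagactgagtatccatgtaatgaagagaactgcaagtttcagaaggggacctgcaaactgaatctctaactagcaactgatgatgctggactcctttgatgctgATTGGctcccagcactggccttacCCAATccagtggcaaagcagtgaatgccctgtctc

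Acute-phase and neutrophil genes ran the other way and were higher in the young ethanol library. Lipocalin 2, encoded by Lcn2, is an iron-scavenging protein made by inflamed endothelium, astrocytes and neutrophils. Lcn2 was at 0.379 CPM in the young vehicle, 0.358 in the older vehicle, 6.71 in the young ethanol and 0.696 in the older ethanol library, from 382 UMIs in the young and 34 in the older ethanol library. The young ethanol library alone was high, and its level was 9.64-fold (6.78 to 13.7) that of the older one. Lcn2 was found in 6.94% of the young and 1.10% of the older ethanol spots, and in 3.15% and 0.393% after thinning. Lrg1, a leucine-rich glycoprotein of activated endothelium, was at 5.96 and 1.62 CPM, a 3.67-fold ratio (2.85 to 4.74). In the vehicle pair Lrg1 was at 2.51 and 1.63. Both met the rule in the meningeal and vascular spots. There Lrg1 had 111 UMIs in the young and 6 in the older ethanol library (44.9 and 2.80 CPM), which is 16.0-fold (7.05 to 36.4), and Lcn2 had 109 and 9 UMIs (44.1 and 4.21 CPM), which is 10.5-fold. In a cluster led by Homer3 and Cldn22, named here after its values were seen, Lcn2 had 54 and 5 UMIs.

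S100a8 and S100a9 encode the subunits of calprotectin, the main cytosolic protein of neutrophils. S100a8 was at 1.02 CPM in the young ethanol and 0.143 in the older ethanol library (62 and 7 UMIs, 7.14-fold, 3.26 to 15.6). In the vehicle pair it was at 0.112 in the young and 1.08 in the older library (6 and 54 UMIs, log2 ratio 3.27, interval 2.04 to 4.50). S100a9 had a log2 ratio of -1.71 in the ethanol and 3.04 in the vehicle pair. The high libraries were thus the young one under ethanol and the older one under vehicle. These counts rested on few spots: 10 spots held 63.0% of the S100a8 UMIs of the young ethanol library, and S100a8 was found in 1.39% of its spots and in 0.265% of the older ethanol spots. All 3 measured genes of the neutrophil and acute-phase list were lower in the older ethanol library, with a median of -2.84.

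Several genes of the vessel lining were at lower levels in the older ethanol library, although the endothelial list as a whole was not. Pglyrp1, a peptidoglycan-recognition protein of brain endothelium and neutrophils, was at 26.0 CPM in the young vehicle, 23.4 in the older vehicle, 26.2 in the young ethanol and 13.04 in the older ethanol library. Only that last level was low. Its log2 ratio to the young ethanol library was -1.01 (interval -1.14 to -0.87), and Pglyrp1 was below the young library in 10 of 10 regions and met the rule in 8. The section value of Pglyrp1 lies at the edge of the rule and did not meet it under the total without mitochondrial genes, under size factors, or with coarser or finer strata. Ctla2a, a cysteine protease inhibitor of endothelium, was at 24.6 and 12.6 CPM (log2 ratio -0.96) and lower in 11 of 11 regions, where 6 met the rule. The surface proteins of the endothelial lumen encoded by Ly6a and Ly6c1 were at 91.0 and 52.8 CPM and at 113 and 71.1 CPM, log2 ratios of -0.79 and -0.67, and Ly6c1 was lower in 17 of 18 regions. In the vehicle pair the log2 ratio was -0.15 for Pglyrp1, 0.41 for Ctla2a, -0.19 for Ly6a and -0.12 for Ly6c1. Ctla2a, Ly6a and Ly6c1 over the section, and the tight-junction gene Cldn5, were chosen after their values were seen.

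Over the section the wider vascular lists lay near the median of all genes. The endothelial list of 18 measured genes had a median of -0.06 with 6 above 0 and none past the rule, and Cldn5 itself had a log2 ratio of 0.27. Of its members with most UMIs, Bsg ranged from -0.07 to -0.02 over the settings and Slc2a1 from -0.60 to -0.53. In the meningeal and vascular spots the endothelial median was -0.42 over 14 genes, with Ly6a and Ly6c1 lower, against -0.09 over all genes and 0.22 in the vehicle pair. It was -0.24 in the upper and -0.27 in the deep neocortex, -0.26 in the piriform cortex and amygdala and in CA1, -0.82 over 4 genes in the reticular thalamus, and 0.16 in the hypothalamus. The pericyte and smooth muscle list of 12 had a median of -0.11 with none above 0, against 0.28 in the vehicle pair. Tmem252, a transmembrane protein gene, was at 7.27 and 2.92 CPM over the section (log2 ratio -1.32), and the log2 ratio was -1.75 in the relay thalamus and -1.69 in the meningeal and vascular spots. It was 0.33 over the section in the vehicle pair.

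Red-cell RNA differed alongside these vessel genes. The beta-globin gene Hbb-bs was at 723 CPM in the young vehicle, 702 in the older vehicle, 1239 in the young ethanol and 709 in the older ethanol library, so the young ethanol library alone was high. All 5 haemoglobin genes were below the young library over the section, with a median of -0.78, against -0.12 in the vehicle pair. In the meningeal and vascular spots all 5 met the rule as lower, with a median of -1.46, and so did all 4 measured ones in the striatum and central amygdala. Hbb-bs was below in 15 of 19 regions and above in the habenula, where it met the rule as higher at a log2 ratio of 1.26. In layer 6b, with 47 and 35 spots, 0.455% of genes were higher and 0.248% lower, against 0.109% and 0.896% in the vehicle pair, and all 4 measured haemoglobin genes met the rule as higher in both pairs, with medians of 1.32 under ethanol and 1.77 under vehicle. In white matter the haemoglobin median was -0.89 under ethanol and 1.20 under vehicle, where all 4 met the rule as higher. The summed haemoglobin level was 2446 CPM in the young and 1413 in the older ethanol library, and that of the acute-phase list 10.6 and 1.77. The part of residual blood in the levels of Lcn2, S100a8, Lrg1 and the vessel genes was not tested.

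In the young ethanol library C4b, Serpina3n, Gfap, Lyz2 and C1qa had their highest levels in white matter, and all of these but Gfap were above the older ethanol library there. The region comprised 286 young and 308 older spots with myelin genes. It had 15 of 6394 genes higher (0.235%) and 36 lower (0.563%), against 0.114% and 0.243% in the vehicle pair, with a median log2 ratio of -0.07 over all genes. C4b, the complement component that ageing glia make, was at 97.4 CPM in the young vehicle, 155 in the older vehicle, 829 in the young ethanol and 578 in the older ethanol library. Both ethanol libraries were above both vehicle libraries. Age ran in opposite directions in the pairs, with a log2 ratio of -0.52 (interval -0.61 to -0.43) under ethanol and 0.67 in the water-treated pair. Serpina3n, which reactive astrocytes and oligodendrocytes secrete to block proteases, was at 23.4, 28.2, 286 and 162 CPM in that order, a log2 ratio of -0.82 under ethanol. Gfap, the astrocyte filament, was at 401, 604, 757 and 771 CPM, with a log2 ratio of 0.03 under ethanol and 0.59 under vehicle. None of these 3 met the rule of size.

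Phagocyte genes of white matter were also highest in the young ethanol library. Lyz2, lysozyme of activated microglia and macrophages, was at 37.0 CPM in the young vehicle, 35.4 in the older vehicle, 303 in the young ethanol and 161 in the older ethanol library (log2 ratio -0.91, interval -1.08 to -0.75). Spp1, the secreted glycoprotein osteopontin, was at 7.69, 12.8, 113 and 61.9 CPM (log2 ratio -0.87). C1qa, a chain of the complement initiator C1q that microglia make, was at 210, 208, 642 and 449 CPM (log2 ratio -0.51). Trem2, the microglial lipid receptor, and Cst7, a protease inhibitor of reactive microglia, had log2 ratios of -0.34 and -0.44. The vehicle levels stood below the ethanol levels for Lyz2, Spp1 and C1qa at both ages. Of the 19 measured disease-associated microglia genes 1 was above 0 in white matter, with a median of -0.29. Of the 14 homeostatic microglia genes the median was -0.27, and of the 10 complement genes it was -0.49 with 1 above 0, against 0.21 for complement in the vehicle pair. No gene of these 3 lists met the rule. In the hypothalamus these lists lay above 0, with a median of 0.28 and 12 of 14 above 0 for homeostatic microglia, 0.11 and 12 of 14 for disease-associated microglia, and 0.08 and 7 of 9 for complement, again with no gene past the rule. The myelin structure gene Mbp was at 16212 CPM in the young and 18263 in the older ethanol library (log2 ratio 0.17).

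Among reactive astrocyte genes 2 of 8 were lower in white matter. Timp1, an inhibitor of matrix proteases, was at 1.10 CPM in the young vehicle, 1.03 in the older vehicle, 25.8 in the young ethanol and 6.44 in the older ethanol library (log2 ratio -2.00, interval -2.74 to -1.26, from 76 and 18 UMIs). The young ethanol library was the highest and the older ethanol library stood between it and the vehicle pair. Fkbp5 was the other. Over the section the reactive astrocyte list of 14 genes had a median of -0.25 with 1 gene above 0 and Lcn2 alone past the rule. Section log2 ratios were -0.29 for C4b, -0.22 for Serpina3n, -0.05 for Gfap, -0.25 for C1qa, -0.51 for Lyz2, -0.52 for Spp1, -0.48 for Cst7, -0.14 for Trem2 and -0.07 for Apoe, the main lipid carrier of the brain. The sign of Gfap depended on the scaling, between -0.05 and 0.02. In the vehicle pair the log2 ratios were 0.40 for C4b, 0.37 for Serpina3n and 0.36 for Gfap. The differences between the pairs were not tested, and whether white matter of the same tracts lay in both sections could not be read because spot positions were not used here.

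**Figure D2:**
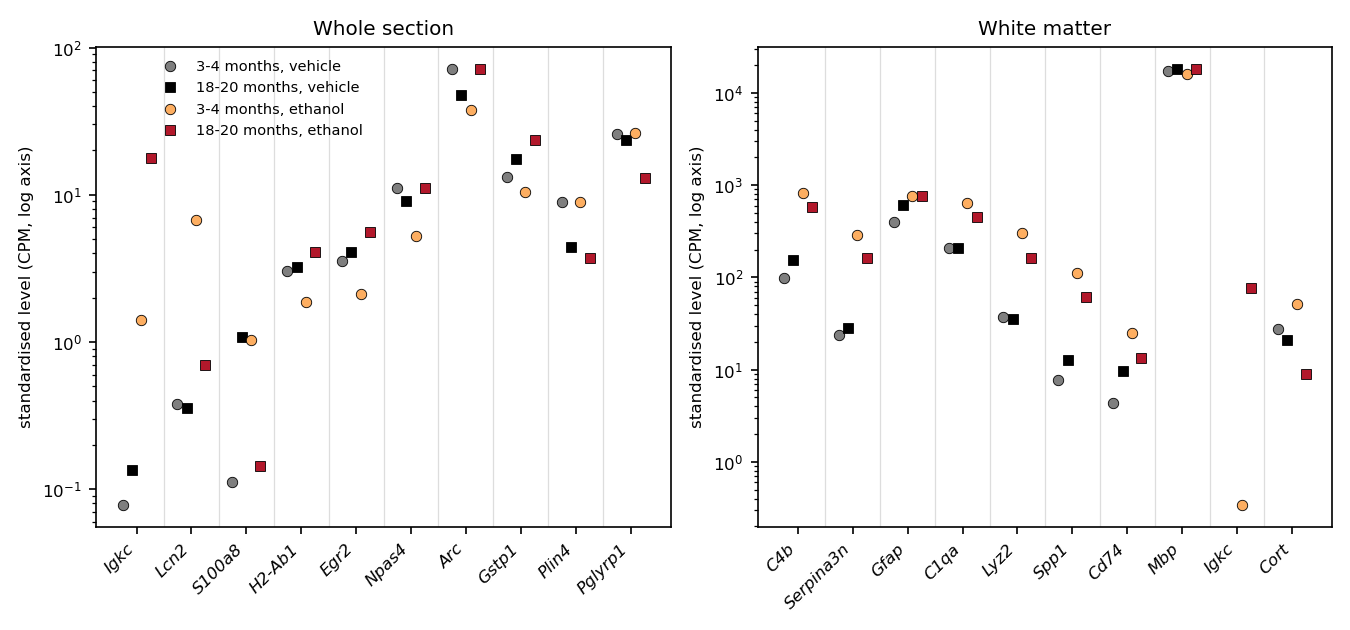
Level in CPM, on a log axis, of named genes in each of the 4 libraries over the whole section (left) and in white matter (right). Grey circles are the young vehicle, black squares the older vehicle, orange circles the young ethanol and red squares the older ethanol library, and Igkc has no vehicle point in white matter because both are at 0. In white matter C4b, Serpina3n, Lyz2 and Spp1 lie above both vehicle libraries in both ethanol libraries, with the young ethanol library highest, and Igkc is highest in the older ethanol library in both panels.

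Most immediate early genes were at higher levels in the older ethanol library. Of the 20 measured 2 met the rule over the section, Egr2 and Npas4, none was lower, and 18 lay above 0, with a median of 0.40 against 0.09 in the vehicle pair and -0.05 over all genes. Egr2, a zinc-finger transcription factor, was at 3.53 CPM in the young vehicle, 4.10 in the older vehicle, 2.11 in the young ethanol and 5.56 in the older ethanol library. The ethanol ratio was 2.64-fold (2.13 to 3.27) from 123 and 270 UMIs. Npas4, a factor transcribed in neurons upon calcium entry, was at 11.1, 9.11, 5.26 and 11.2 CPM in that order, a 2.13-fold ratio under ethanol. Arc, which encodes a protein of active synapses, was at 71.5, 47.9, 37.6 and 71.7 CPM, with a log2 ratio of 0.93 (interval 0.85 to 1.01) under ethanol and -0.58 under vehicle. For Npas4 and Arc the older ethanol level was close to the young vehicle level and the young ethanol library was the lowest of the 4. Fos was at 20.2 and 33.6 CPM (log2 ratio 0.73), Nr4a1 at 44.6 and 71.7 (0.68) and Egr1 at 162 and 215 (0.41) in the young and older ethanol libraries. Egr3, Homer1 and Nptx2 were at 0.01, 0.00 and -0.12 on the log2 scale, so the list did not move as a whole.

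The sequence before Egr2 is shown because it was the immediate early gene with the highest ratio and because the list is known for serum response factor sites, the CArG box. The CArG box was searched on both strands in the 250 bases before each start. It was found in 1 of 15 matched genes of the list, Egr2, in 4 of its 5 listed starts, and in 1.47% of all promoters. The cyclic AMP response element TGACGTCA was found in Btg2 and Dusp1. The second listed start of Egr2 lies on the plus strand with its stretch at chr10:67537316-67537565 of GRCm38.p6, from RefSeq, and capitals mark the CArG box.
Egr2: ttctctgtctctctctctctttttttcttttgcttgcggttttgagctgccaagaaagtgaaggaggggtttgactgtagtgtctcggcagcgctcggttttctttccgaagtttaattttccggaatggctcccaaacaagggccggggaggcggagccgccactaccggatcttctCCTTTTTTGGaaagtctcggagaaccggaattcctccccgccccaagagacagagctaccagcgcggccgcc

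Arc was above the young ethanol library in 15 of 15 regions and met the rule in 6. Egr1 was above in 16 of 16, Egr4 in 11 of 11, Fos in 10 of 10 and Npas4 in 5 of 5 regions in which they could be compared. Other members were split: Nr4a2 lay above in 3 and below in 6 of 9 regions, Nptx2 above in 5 of 12, Egr3 in 8 of 13 and Homer1 in 9 of 15. In the habenula 1 of 3 measured members lay above 0, with a median of -0.31. These regions come from 1 section a side and are not replicates. In the striatum and central amygdala, where 19 of 6522 genes were higher (0.291%) and 33 lower (0.506%), against 0.108% and 0.234% in the vehicle pair, 5 of 12 immediate early genes met the rule as higher. With strata from marker genes alone 8 genes of this region were higher and 48 lower. Arc was at 18.1 and 66.5 CPM there and Nr4a1 at 23.9 and 81.4, and in the vehicle pair Arc was at 60.8 and 52.5 and Nr4a1 at 91.5 and 69.4. For Arc and Nr4a1 the young ethanol library was again the low one. In the hypothalamus, with 10 of 9509 genes higher (0.105%) and 7 lower (0.0736%), against 0.122% and 0.233% in the vehicle pair, all 16 immediate early genes were above 0 with a median of 0.44, and Arc met the rule at 6.75 and 18.2 CPM. In the piriform cortex and amygdala, with 15 of 7722 higher (0.194%) and 9 lower (0.117%), against 0.0216% and 0.0324% in the vehicle pair, 14 of 17 were above 0 and Npas4 met the rule at 7.18 and 20.0 CPM. In this region 62.5% of the genes that met the rule were higher, and 84.0% with size factors.

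The hippocampal and some cortical spots fell outside the rule for naming genes because they were few, and the genes named from them were chosen after their values were seen. In CA1, with 12 of 5867 genes higher (0.205%) and 5 lower (0.0852%), against 0.195% and 0.0887% in the vehicle pair, Arc was at 135 CPM in the young vehicle, 66.6 in the older vehicle, 65.6 in the young ethanol and 212 in the older ethanol library. The ethanol log2 ratio was 1.69 (interval 1.40 to 1.98) and the vehicle log2 ratio -1.02, so the pairs lay on opposite sides. In a cortical cluster led by Rspo2 and Cdc25c, 81 young and 74 older spots, 18 of 6699 genes were higher (0.269%) and 12 lower (0.179%), against 0.124% and 0.196% in the vehicle pair. Here 10 of the 17 measured immediate early genes were among the higher, with a median of 1.12 against 0.21 in the vehicle pair. Npas4 was at 5.10 and 31.9 CPM there, Egr4 at 50.2 and 151 and Arc at 39.0 and 113. White matter had the single lower member. Dusp1, a phosphatase that ends MAP kinase signals, was at 48.9 CPM in the young and 20.4 in the older ethanol library (log2 ratio -1.26).

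Cort and Vip, peptides of cortical interneurons, were at lower levels in the older ethanol library, while Npy and Sst varied by region. Cort encodes cortistatin, a somatostatin relative of inhibitory neurons. Over the section it was at 35.7 CPM in the young vehicle, 40.9 in the older vehicle, 38.8 in the young ethanol and 22.3 in the older ethanol library, so the older ethanol library alone was low, with a log2 ratio of -0.80 (interval -0.91 to -0.70). Vip, the peptide of disinhibitory interneurons, was at 43.8 and 28.9 CPM under ethanol and at 38.5 in both vehicle libraries. Npy was at 192 and 144 CPM under ethanol and 192 and 197 under vehicle. Sst was at 510 and 446 CPM. The list of 14 had a median of -0.23 with 1 gene above 0 and none past the rule over the section, against 0.04 in the vehicle pair. The enzymes of GABA synthesis encoded by Gad1 and Gad2 had log2 ratios of -0.27 and -0.29. Vip, Npy, Sst, Gad1 and Gad2 over the section were named after their values were seen.

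The interneuron peptides met the rule in several regions. In the upper neocortex, with 204 young and 101 older spots, 14 of 9014 genes were higher (0.155%) and 46 lower (0.51%), against 0.0919% and 0.241% in the vehicle pair. Of these 23.3% were higher, and 34.5% under both other scalings. Cort was at 45.3 CPM in the young vehicle, 51.2 in the older vehicle, 81.3 in the young ethanol and 23.1 in the older ethanol library (log2 ratio -1.82, interval -2.16 to -1.47). Of the 4 libraries young ethanol was the highest and older ethanol the lowest. Npy was at 386, 374, 396 and 178 CPM, and here the older ethanol library alone stood apart (log2 ratio -1.15). In white matter Cort was at 27.5, 21.1, 51.6 and 8.94 CPM (log2 ratio -2.53), Sst at 699, 372, 1154 and 476 (log2 ratio -1.28), and Reln, the matrix protein of layer 1 and interneurons, at 22.0, 27.7, 22.1 and 7.15 (log2 ratio -1.63). In white matter 3 of 10 interneuron genes met the rule as lower and none as higher, against 0.563% and 0.235% of all genes there. Presynaptic release genes had a median of -0.28 over 19 genes in white matter, with Syt2 and Vamp1 lower. The postsynaptic scaffold median was -0.03 over 13 genes, and that of all genes -0.07. How much neuronal tissue the white matter spots of each section held was not tested. Cort lay below in 7 of 10 regions and met the rule in 5, and Vip lay below in 8 of 9. Npy lay below in 9 and above in 7 of 16 regions, and met the rule as lower in 2. Sst lay above in 9 and below in 8 of 17, and met the rule once in each direction. In regions outside the naming rule, Npy was at 411 and 187 CPM in the dentate granule layer and Vip at 95.94 and 44.97 in the deep neocortex. Striatal Sst ran the other way, at 496 CPM in the young and 1011 in the older ethanol library.

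Several genes that glucocorticoid hormones induce were at lower levels in the older library of both pairs. Fkbp5, a co-chaperone of the glucocorticoid receptor that the hormone itself induces, was at 31.5 CPM in the young vehicle, 22.5 in the older vehicle, 27.6 in the young ethanol and 17.9 in the older ethanol library, log2 ratios of -0.62 under ethanol and -0.49 under vehicle. Plin4, a lipid droplet coat protein, met the rule in both pairs. It was at 8.94 and 4.42 CPM in the vehicle and at 8.95 and 3.70 in the ethanol pair, with an ethanol ratio of -1.27 (interval -1.52 to -1.03) on the log2 scale. Cdkn1a, the cell-cycle inhibitor p21, had log2 ratios of -0.68 and -0.66 in the ethanol and vehicle pairs over the section. In the relay thalamus, where 13 of 9467 genes were higher (0.137%) and 20 lower (0.211%), against 0.0481% and 0.144% in the vehicle pair, Cdkn1a was at 40.3 and 17.0 CPM under ethanol (log2 ratio -1.25). In white matter it was at 93.8 and 44.7 under vehicle and at 73.3 and 25.4 under ethanol. Map3k6, a stress-activated kinase, had a log2 ratio of -1.57 in the thalamus. The glucocorticoid list of 13 genes had a section median of -0.28 under ethanol, with 2 genes above 0 and 1 past the rule, and of -0.20 under vehicle. Fkbp5 lay below in 12 of 13 regions and Cdkn1a in 10 of 12. Of the 27 lower genes of white matter compared in both pairs 5 were lower in the vehicle pair too, Cdkn1a, Plin4, Rhoj, Sh2b2 and Syt2, which is 18.5% of the ethanol and 62.5% of the 8 vehicle calls among genes compared in both.

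Over the section, a pair of cholinergic neuron genes was lower in the older ethanol library. Slc18a3 encodes the vesicular acetylcholine transporter and Slc10a4 a vesicle transporter of the same neurons. Slc10a4 was at 0.809 CPM in the young vehicle, 1.19 in the older vehicle, 3.90 in the young ethanol and 1.10 in the older ethanol library (log2 ratio -1.83). Slc18a3 was at 0.335, 0.285, 3.60 and 1.496 CPM (log2 ratio -1.27). The young ethanol level was the highest for both genes, and for Slc18a3 both ethanol levels were above both vehicle levels. The vehicle levels leave out the habenula and the reticular thalamus, which the ethanol levels include. The pairs were therefore not set side by side over the same tissue. The ratio of Slc10a4 was -2.14 on the log2 scale in the hypothalamus and -2.65 in the striatum and central amygdala, where it had 64 and 7 UMIs. Slc18a3 could be compared in 1 region only, where its log2 ratio was -0.27 and did not meet the rule. Cells of this kind are few and clustered, and how much of their nuclei each section held was not tested.

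Mitochondrially encoded RNA and a group of carry-over transcripts were at higher levels in the older ethanol library. All 13 mitochondrial genes were above 0 with a median of 0.31, against -0.07 in the vehicle pair, while 21 nuclear genes of oxidative phosphorylation had a median of -0.14 with 2 above 0. mt-Atp8, a subunit of the ATP synthase, was at 347 and 585 CPM under ethanol and at 328 and 270 under vehicle, above in 19 of 19 regions. mt-Co1, a cytochrome oxidase subunit, was at 15752 and 19590 under ethanol and at 13548 and 16160 under vehicle. The carry-over list holds Lars2, AY036118 and Gm42418, which often carry ribosomal RNA reads. These genes took 0.280% of the young and 0.564% of the older ethanol UMIs, and 0.296% and 0.212% of the vehicle UMIs. AY036118 was at 7.75 and 24.6 CPM under ethanol (log2 ratio 1.67) and at 9.99 and 5.94 under vehicle. Lars2 was at 277 and 571 under ethanol and 338 and 190 under vehicle, and lay above in 19 of 19 regions. Lrrc17, a secreted leucine-rich protein gene, had the same pattern, at 179 and 348 CPM under ethanol and 247 and 190 under vehicle. Whether a quality of the library differed along with these genes, and what part it had in the other differences, was not tested.

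Gstp1, a glutathione transferase that conjugates reactive aldehydes and other electrophiles, was higher in the older ethanol library. It was at 13.1 CPM in the young vehicle, 17.6 in the older vehicle, 10.5 in the young ethanol and 23.4 in the older ethanol library, a 2.24-fold ratio from 591 and 1132 UMIs (log2 ratio 1.16, counting interval of the ratio 2.02 to 2.47). In the vehicle pair the older library was also the higher one, at a log2 ratio of 0.43. Gstp1 lay above in 9 of 9 regions and met the rule in 6. In white matter it was at 29.2 and 79.8 CPM under ethanol and 39.6 and 60.6 under vehicle. Near-identical copies of this gene exist, and how reads were divided among them was not given in the sources used here.

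**Figure D3:**
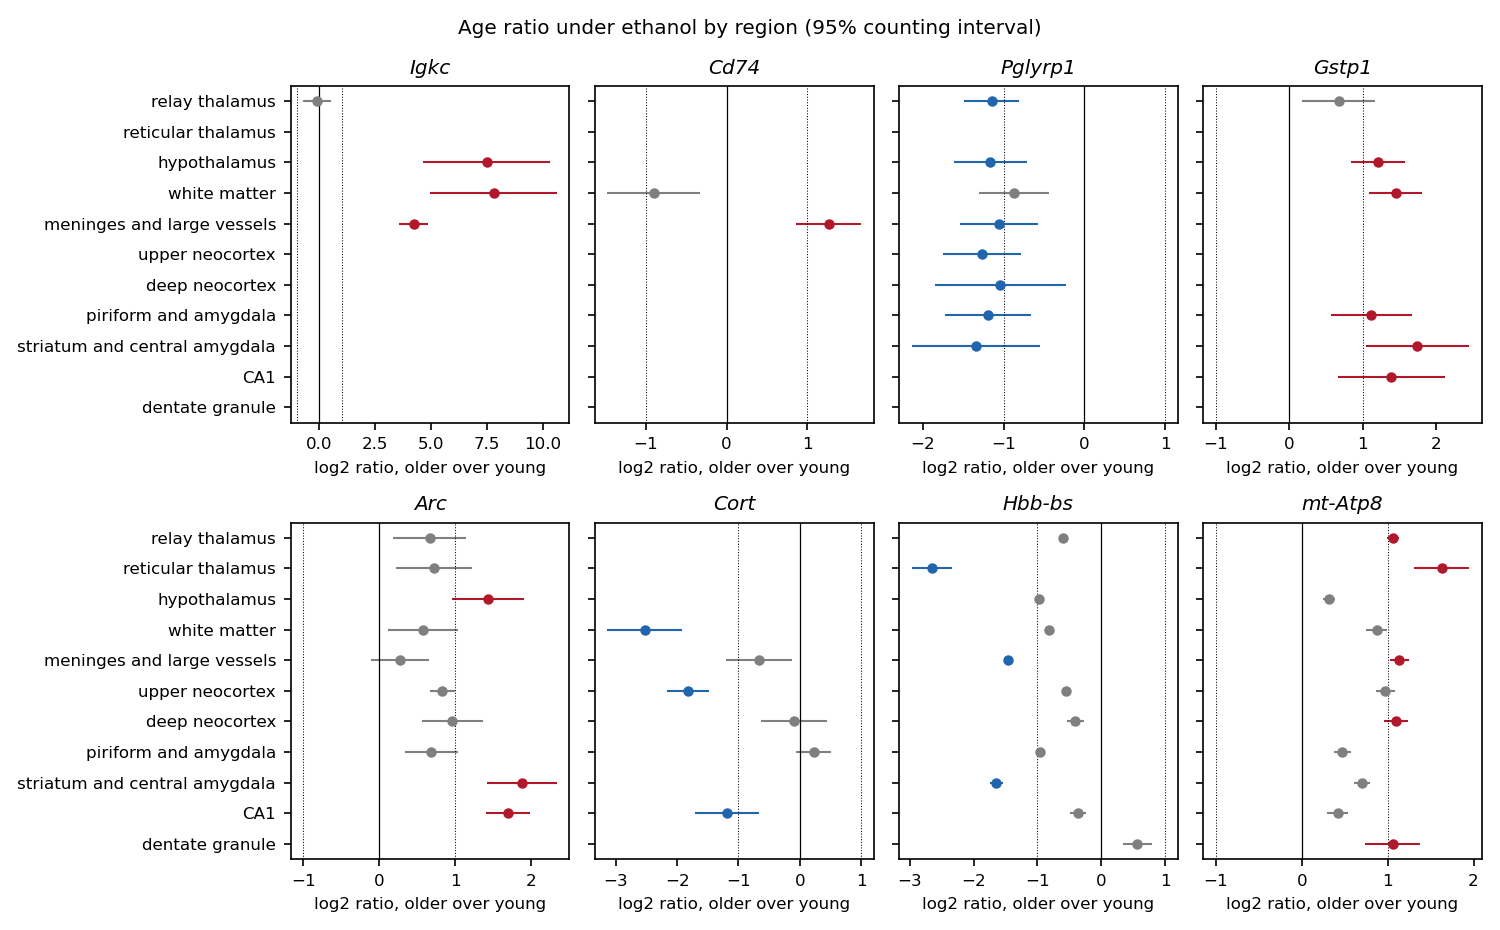
Log2 ratio of older over young under ethanol for 8 genes in each of 11 regions, with 95% counting intervals. Red points met the rule as higher, blue as lower and grey neither. Pglyrp1 lies below 0, and Gstp1, Arc and mt-Atp8 above 0, wherever they could be compared, while Cd74 is higher in the meningeal and vascular spots and at -0.91 in white matter.

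The other genes past the rule over the section were few and of several kinds. Pth2, a hypothalamic and thalamic peptide of the parathyroid hormone family, was at 0.232 CPM in the young vehicle, 0.902 in the older vehicle, 0.161 in the young ethanol and 1.18 in the older ethanol library, so both older libraries were above both young ones. It had 9 and 56 UMIs under ethanol (7.34-fold, 3.61 to 14.9), and 4 and 50 of them in the hypothalamus. How much of the tissue that carries Pth2 each section held was not tested. Slc47a1, an exporter of organic cations, had 24 and 91 UMIs (log2 ratio 2.15), and the log2 ratio was 1.91 in the meningeal and vascular spots. Capn11, a calpain protease, had 9 and 52 UMIs (log2 ratio 2.87). Anxa1, a lipid-binding protein of glucocorticoid action, was at 0.82 and 1.65 CPM (log2 ratio 1.01) and did not meet the rule with coarser strata, with no strata or with spots of at least 1000 UMIs. Among the lower genes Eps8l1, an actin regulator, was at 9.03 and 3.44 CPM (log2 ratio -1.39), and 0.45 on the log2 scale in the vehicle pair. Xlr3b, an X-linked gene, was at 0.943 and 2.38 CPM under vehicle and at 2.29 and 0.558 under ethanol (log2 ratio -2.04), which are opposite directions. Mucl2 had 65 and 7 UMIs (log2 ratio -2.97), and it had too few UMIs to be called when strata were set from marker genes.

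Single neuropeptides and channels led individual regions. In the striatum and central amygdala Nts, the peptide neurotensin, was at 26.2 CPM in the young vehicle, 24.4 in the older vehicle, 42.3 in the young ethanol and 198 in the older ethanol library (4.67-fold, 3.82 to 5.72). Cartpt, the precursor of the peptide CART, was at 59.4, 88.8, 18.1 and 49.2 CPM in that region. For Nts the older ethanol library stood apart, and for Cartpt the young ethanol library was the lowest. Tbr1 met the rule as higher in this region too, while Tpbg and Rxrg were lower there at -1.25 and -1.16 on the log2 scale. Whether the mix of tissue within this cluster differed between the sections was not tested. In the piriform cortex and amygdala Grp, gastrin-releasing peptide, was at 95.6 and 94.0 CPM under vehicle and at 7.18 and 35.0 under ethanol (log2 ratio 2.29), so both ethanol libraries were below both vehicle libraries. Cbln2, a synaptic organiser, was lower there at 39.6 and 13.2 CPM (log2 ratio -1.59). Grp is itself among the leading genes that set this cluster apart from other spots. The cluster held 9.65% of the young and 8.10% of the older vehicle spots, and 5.21% and 6.51% of the ethanol spots. Whether the mix of tissue within the piriform and amygdala cluster differed between the sections was not tested either. In the relay thalamus Gabrb2, a GABA receptor subunit, was at 3.70 and 8.17 CPM.

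Smaller regions gave the following shares of genes past the rule. In the dentate granule layer 16 of 4931 genes were higher (0.324%) and 3 lower (0.0608%), against 0.0306% and 0.184% in the vehicle pair. With spots of at least 1000 UMIs or finer strata there were 12 higher and 14 lower genes in the dentate granule layer, so that its excess of higher genes rested on the setting. In the deep neocortex 5 of 5757 were higher (0.0869%) and 32 lower (0.556%), against 0.107% and 0.409%. The habenula, with 27 and 20 spots, had 13 of 2633 higher (0.494%) and 48 lower (1.82%), and the reticular thalamus had 8 of 2458 higher (0.325%) and 19 lower (0.773%). No gene of the vehicle pair could be set beside the habenula because it held no vehicle spot. In the meningeal and vascular spots 37.3% of the genes past the rule were higher, and 47.9% under both other scalings. In the relay thalamus 39.4% of such genes were higher, and 53.1% with size factors.

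Most of the other lists stayed near the median of all genes. The interferon list of 25 genes had a section median of 0.18 with 16 above 0 and none past the rule, against 0.17 in the vehicle pair. The disease-associated microglia list of 20 had a median of -0.08, and the homeostatic microglia list of 15 a median of -0.09, with 5 and 6 above 0. Homeostatic astrocyte genes had a median of 0.08, and the measured myelin genes one of 0.03. Metallothioneins, which bind zinc and respond to stress, had a median of -0.23 over 3 genes. Neurotrophin genes had a median of 0.07, and Bdnf was at 0.13. The microtubule-binding gene Mapt was at 161 and 185 CPM under ethanol (log2 ratio 0.20) and 162 and 121 under vehicle (log2 ratio -0.43), above in 16 of 18 regions under ethanol. The new-neuron genes Sox11 and Dcx had log2 ratios of 0.17 and -0.01 (up to 0.04 for Dcx under other settings), the oligodendrocyte precursor gene Gpr17 0.14, and Ttr of the choroid plexus 0.33, although Ttr was used for clustering and so was not counted. Summed choroid plexus markers were 1261 CPM in the young ethanol, 1739 in the older ethanol, 4741 in the young vehicle and 5730 in the older vehicle library.

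**Figure D4:**
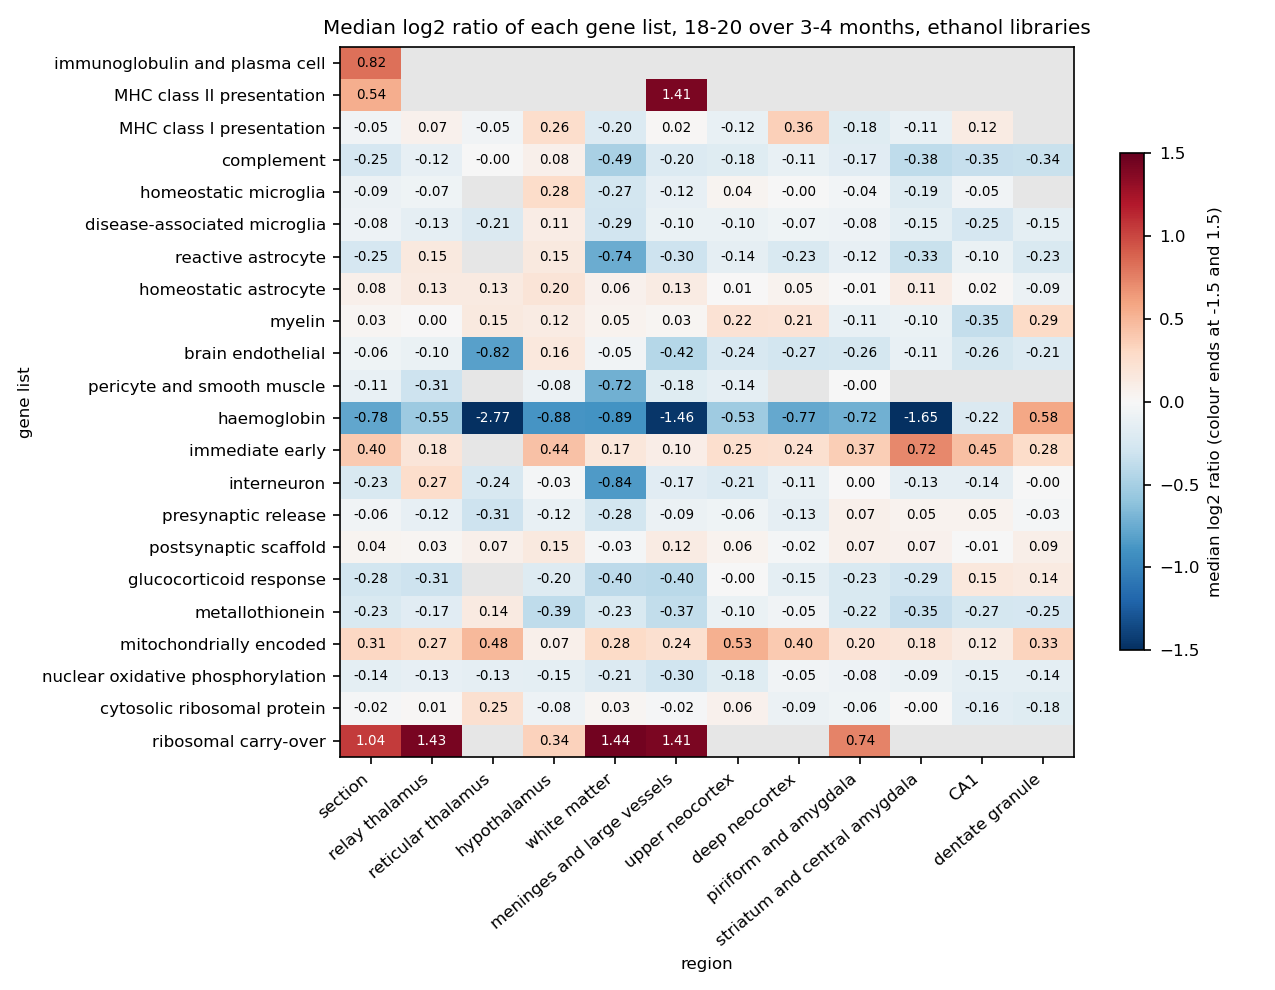
Median log2 ratio of older over young under ethanol for 22 gene lists over the section and in 11 regions, with red above and blue below 0, and grey where fewer than 3 members were measured. Haemoglobin and complement are mostly below 0, immediate early and mitochondrially encoded genes mostly above it, and class II presentation, with 3 or more members measured among the regions in the meningeal and vascular spots alone, is at 1.41 there.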

How the data were processed

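Libraries were prepared on Visium slides per the labels' protocols. The deposited values are UMI counts per gene and spot, made by the authors with Space Ranger against mm10. The submitters' processing notes give version 2.0.0 and the deposited matrix header 1.3.1, and the annotation release and image alignment were not given in the sources used here. The matrix holds 11064 spots and 32285 features, and 0 columns of other samples were present. Counts were used as deposited.

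Spots with at least 500 UMIs were scaled to 10000 UMIs, log-transformed, centred and scaled within each library. They were clustered on 1500 variable genes joined by marker genes (1584 features, 30 components, 15 neighbours, Leiden resolution 1). Of 23 clusters, 16 were named from at least 3 markers, and the others are called by their leading genes. Rebuilt names may differ from those of the study. No doublet caller was run because a spot covers several cells. The tools were Python 3.11.15, numpy 2.4.6, scipy 1.17.1, pandas 2.3.3, scikit-learn 1.9.0, igraph 0.11.9, leidenalg 0.10.2 and matplotlib 3.10.9.

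A gene's ratio was standardised over strata with Mantel-Haenszel weights, and its 95% interval assumes Poisson counts. It covers counting error only, as do the exact Clopper-Pearson intervals of shares. A count of 0 was replaced by 3 UMIs over the library, which correspond to 0.0515 CPM in the young and 0.0623 CPM in the older ethanol library. The code was tested on simulated counts. The genes named were the 8 most higher and 8 most lower past the rule of size, for the section and for each named region with at least 100 spots in both libraries, ordered by the interval bound nearest to no change. They were joined by up to 4 genes past the rule per list, or up to 2 with most UMIs where none was, and by a fixed set of 25 genes. Genes given outside this rule were chosen after their values were seen. Lists, members and tests were chosen with earlier results of these data known. Of the list genes 670 of 671 were matched to the files. Alternatives were 2 other scalings, other strata, no strata, and other UMI minimums for spots and genes.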

Additional observations from a re-analysis of the deposited data

Results flagged for a closer look

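Genes met the rule of size in opposite directions in the ethanol and the vehicle pair in 3 cases over the section. S100a8, a subunit of the neutrophil protein calprotectin, had a log2 ratio of older over young of -2.84 under ethanol and 3.27 under vehicle. Ccdc36 had a log2 ratio of 1.65 under ethanol, from 83 and 221 UMIs, and of -1.26 under vehicle. Xlr3b had a log2 ratio of -2.04 under ethanol and 1.34 under vehicle. Each side was 1 library, so the differences between the pairs were not tested.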

How the results depend on the processing

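Counts of genes past the rule of size were recomputed under each alternative for the section and 9 regions, and 65 stayed within 1.5 times their first value while 11 moved further. Without a minimum of UMIs the count was 2747 for the section, 2782 for the relay thalamus, 2722 for white matter, 2722 for the hypothalamus, 2718 for the piriform cortex and amygdala, 2423 for the upper neocortex, 2873 for the meningeal and vascular spots, 3095 for the striatum and central amygdala, 2603 for CA1 and 2612 for the dentate granule layer. Genes with a handful of UMIs entered there, so that count is set by counting error. With clustering resolution 2 the piriform count was 57. Where the total stayed, the split could still differ: strata from marker genes gave 8 higher and 48 lower genes in the striatum and central amygdala, and the dentate granule layer had 12 and 14 at 1000 UMIs per spot or at resolution 2. Ratios of single genes and list medians were recomputed for the section only. Among the genes named for the section, no direction was reversed for a gene past the rule. Log2 ratios of single genes moved beyond their interval in 143 recomputed values and stayed within it in 655. List medians moved in 3 and stayed in 305, and all 3 were of the neutrophil and acute-phase list (lowest -3.26). Over the section Igkc ranged from 3.58 to 3.80, Lcn2 from -3.27 to -3.20, Egr2 from 1.39 to 1.45 and Arc from 0.90 to 0.98. No value could be had for the piriform region at 1000 UMIs per spot or at resolution 0.5, for CA1 at resolution 0.5 or for the upper neocortex at resolution 2, because no stratum of that name was left.

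No paired analysis was possible because each group was 1 library, and the ratio has no replicate. Intervals cover counting error only, and age, slide, section plane and animal cannot be told apart. Depth limits scarce genes: 3 UMIs correspond to 0.0515 CPM in the young and 0.0623 CPM in the older ethanol library.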
